A study of Mus musculus with 8 samples.

Results

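Toll-like receptors, the CD180 complex and the proteins that serve them directly were examined in activated B cells of mice with a floxed or a wild-type Eif4a1 gene, which encodes a helicase of translation initiation. The members were 10 of the 53242 genes in the count and TPM tables, taken by symbol: Tlr1, Tlr4, Tlr6, Tlr7, Tlr9, Cd180, Ly86, Unc93b1, Myd88 and Irak4. Splenic B cells with both Eif4a1 alleles floxed (Eif4a1 fl/fl Cd23-cre, called 4A1 KO) or wild type (Eif4a1 +/+ Cd23-cre, called control) came from mice that were all C57BL/6 and aged 8 to 12 weeks. Both genotypes therefore carried the Cd23-cre transgene, which acts from the immature B cell stage in the spleen. The cells were cultured for 24 h with 40 ng/ml IL4 on irradiated CD40LB cells, feeder cells that present CD40 ligand and BAFF, and the feeder cells were then depleted. RNA of 8 mice was sequenced, 4 of each genotype, with replicates 1 and 3 from males, 2 and 4 from females, 1 and 2 in batch A, and 3 and 4 in batch B. Replicate 1 of both genotypes had reduced viability according to the methods of the study, so tests of genotype used replicates 2 to 4 (n = 3 per genotype) and all 8 libraries served as an alternative.

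Toll-like receptors bind conserved microbial molecules or nucleic acids through leucine-rich repeats, and most of them signal through the adaptor MYD88 and the kinase IRAK4 to NF-kB. TLR1, TLR4 and TLR6 act at the cell surface, whereas TLR7 and TLR9 are carried by UNC93B1 to endosomes, where they bind RNA and DNA. CD180 is a surface relative of TLR4 that is abundant on B cells, is held by the small protein MD-1, encoded by Ly86, and lacks the signalling domain of the Toll-like receptors.

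Between 31727557 and 43210858 reads were counted on genes per library. Eif4a1 itself lay at 746 to 941 CPM (read counts scaled to a common library size with the TMM method) in control and at 559 to 689 in 4A1 KO, so the genotypes did not overlap, and its log2 fold change was -0.44 (SE 0.05, edgeR adjusted p = 1.15e-04). The loxP sites flank exons 2 to 4 only, so a count over the whole gene does not measure the deletion. Of 14218 genes tested with edgeR, 13.7% were called lower and 11.6% higher in 4A1 KO, at a Benjamini-Hochberg adjusted p under 0.05 and a log2 fold change beyond 0.5 in size, while 53.0% had an adjusted p under 0.05 at any fold. The summed CPM of 8 B cell markers was 6368 to 7194 in control and 4967 to 5415 in 4A1 KO, and 4 of the 8 were called lower. Of 7 marginal zone B cell markers, 4 were called lower, among them Cr2 by a log2 fold change of -1.10, and 1 was called higher. Among follicular markers Cxcr5 was called lower, at a log2 fold change of -1.47, whereas Fcer2a (0.30, edgeR adjusted p = 0.00116) and Ccr7 (0.47, edgeR adjusted p = 0.00142) had positive folds inside the threshold. Macrophage and monocyte markers summed to 8.91 to 14.5 CPM in control and 14.6 to 16.8 in 4A1 KO. Of these 12, 4 could be tested and 1, Adgre1, was called higher. Vsig4 was at 0 counts in every library and Csf1r at no more than 0.396 CPM. Dendritic cell markers summed to 25.4 to 32.3 CPM in control and 30.3 to 46.9 in 4A1 KO. Flt3 was called lower (-1.89) and Zbtb46 higher (0.68). Zbtb46 made up most of these sums, at means of 21.3 CPM in control and 34.3 in 4A1 KO (replicates 2 to 4), while Klk1 and Clec9a were at 0. Fibroblast markers, which the feeder cells could carry, summed to 27.3 to 48.6 CPM in control and 23.8 to 35.3 in 4A1 KO. Of these 10, 6 could be tested, with 1 called lower and 1 higher. T and NK cell markers summed to no more than 1.11 CPM, and the 6 neutrophil markers were at 0 in every library. The part of these marker differences in the results was not tested, and in bulk RNA fewer cells of a type and less RNA per cell cannot be told apart.

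Promoter sequences are shown for Cd180 beside its partner Ly86, and for Tlr6 beside the neighbouring Tlr1, because in each pair one gene was called between the genotypes and the other was not. Each run is the 120 bases before a RefSeq start on build GRCm38.p6, 5′ to 3′ on the gene's strand, at chr13:102693427-102693546 for Cd180, chr13:37345225-37345344 for Ly86, chr5:64960049-64960168 on the minus strand for Tlr6 and chr5:64933559-64933678 on the minus strand for Tlr1. Where RefSeq listed several starts the most upstream one is shown. Capitals mark matches on either strand to GAGGAA, the core bound by PU.1 and other ETS factors, or to TATAAA, the TATA box, which reads TTTATA on the other strand.
Cd180: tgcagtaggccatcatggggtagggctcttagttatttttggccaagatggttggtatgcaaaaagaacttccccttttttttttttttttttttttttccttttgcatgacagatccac
Ly86: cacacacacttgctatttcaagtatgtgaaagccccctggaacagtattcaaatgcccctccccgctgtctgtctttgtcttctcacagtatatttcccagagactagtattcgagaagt
Tlr6: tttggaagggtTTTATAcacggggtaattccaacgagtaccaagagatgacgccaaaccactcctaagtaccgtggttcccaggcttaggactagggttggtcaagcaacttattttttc
Tlr1: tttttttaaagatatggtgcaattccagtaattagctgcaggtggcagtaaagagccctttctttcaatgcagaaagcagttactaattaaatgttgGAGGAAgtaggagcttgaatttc
Tlr1 held GAGGAA in this stretch and Tlr6 held TATAAA on the reverse strand. In the 250 bases before each start, GAGGAA occurs in 23.3% and TATAAA in 12.4% of 32851 RefSeq promoters. CACGTG (an E-box, in 6.02%) and GGGCGG (a GC box, in 32.7%) were searched as well and had no match in the printed stretches. A match is a description of letters and not of a bound site.

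Of the 10 members, 3 fell in 4A1 KO (Cd180, Tlr4 and Tlr7), 1 rose (Tlr6), and 6 were not called in the counts. The median log2 fold change over the 10 was -0.16 (4A1 KO minus control), beside 0.01 over all genes tested. The called shares over all genes given above, 13.7% lower and 11.6% higher, are the background for these 3 and 1. Another 3 members, Tlr9, Unc93b1 and Myd88, had an adjusted p under 0.05 with a fold below the threshold, which makes 7 of 10 where 53.0% of all genes had one. Over the 8 libraries no member had all of its 4A1 KO values on one side of all control values, whereas 19.2% of genes lay wholly below control and 17.6% wholly above. Within replicates 2 to 4 the genotypes did not overlap for Tlr6 (higher), Tlr7 and Myd88 (both lower), where 25.4% of all genes lay wholly below control and 25.5% wholly above. Each member's fold was recomputed under 10 alternatives of scaling, tool, filter, block and libraries, and 2 of the 4 calls (Tlr6 and Tlr7) were left without the replicate block. Tested by edgeR's glmTreat against the fold of 0.5 itself, Tlr6 alone was called.

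**Figure D1:**
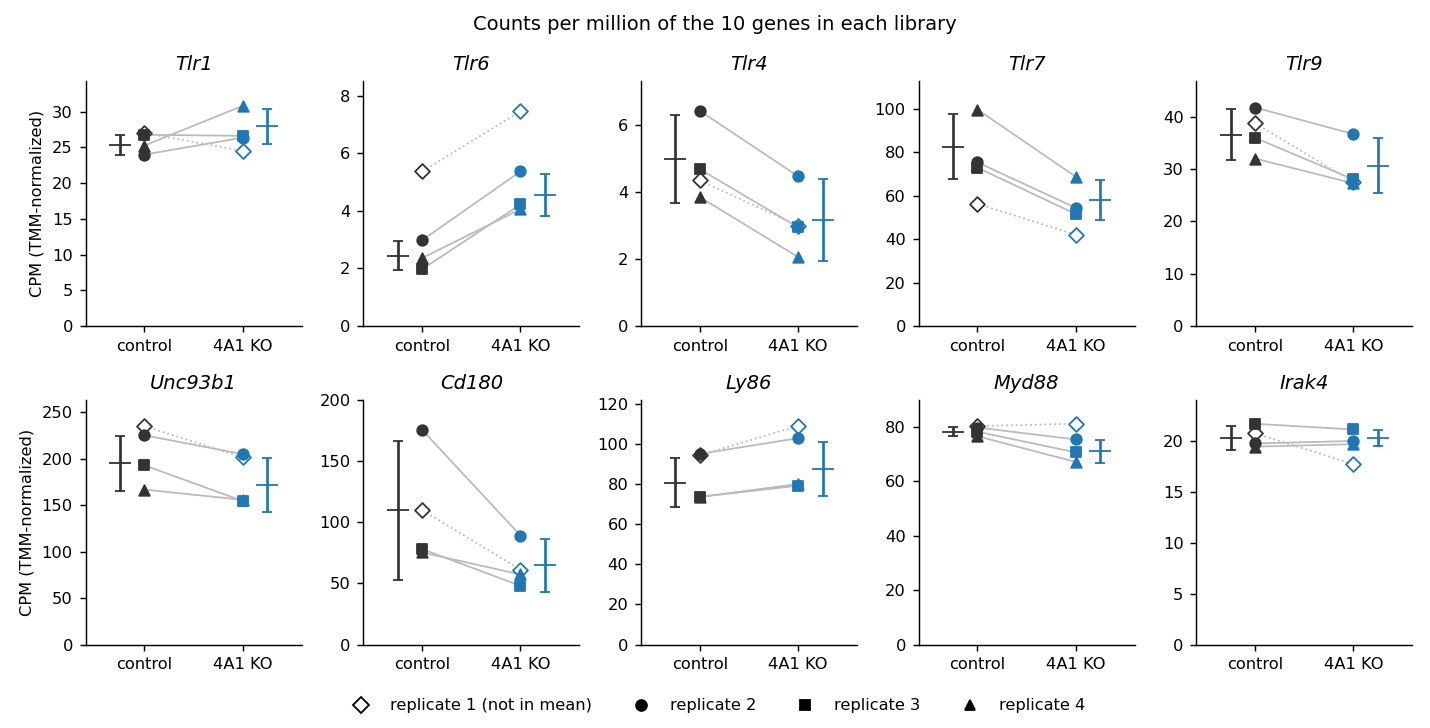
CPM (vertical axis, from 0) of the 10 genes in control (left, dark) and 4A1 KO (right, blue), with a line joining the libraries of each replicate number and bars for the mean ± SD of replicates 2 to 4. The lines of Tlr4, Tlr7, Tlr9, Cd180 and Unc93b1 descend in 4 of 4 pairs and those of Tlr6 and Ly86 ascend in 4 of 4, while the ranges of the genotypes overlap in every panel.

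Among the surface receptors, Tlr6, whose product pairs with TLR2 to sense diacylated lipopeptides, was the member that rose. It lies at chr5:65108704-65203497 on the minus strand (GRCm39), next to Tlr1 at chr5:65082022-65090941 on the same strand. In replicates 1 to 4 Tlr6 measured 5.38, 2.99, 1.98 and 2.36 CPM in control, and 7.47, 5.38, 4.23 and 4.06 CPM in 4A1 KO. Replicate 1 was the highest library of either genotype, and with it the ranges overlapped, whereas within replicates 2 to 4 every 4A1 KO value exceeded every control value, as in 25.5% of all genes. The mean went from 2.44 ± 0.51 to 4.56 ± 0.71 CPM (SD, n = 3), with a log2 fold change of 0.90 (SE 0.14, edgeR adjusted p = 7.77e-04). The call was kept in all 10 alternatives, at log2 fold changes of 0.76 to 0.96. These values rest on 82 to 237 reads per library. The summed macrophage and monocyte markers, of which Adgre1 and Cd68 were the largest, were likewise higher in 4A1 KO. The genotypes lay close in this sum, at up to 14.55 CPM in control and from 14.56 in 4A1 KO. Replicate 1 had the highest sum and the highest Tlr6 in control, whereas in 4A1 KO replicate 4 had the highest sum (16.8) and the lowest Tlr6. The part of these markers in the difference of Tlr6 was not tested.

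Tlr1, whose product pairs with TLR2 on triacylated lipopeptides, differed little. Its CPM ranged from 24.0 to 27.0 in control and from 24.5 to 30.8 in 4A1 KO, with 2 of 4 pairs higher and 2 lower, and the log2 fold change was 0.14 (SE 0.08, edgeR adjusted p = 0.179).

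Tlr4, the lipopolysaccharide receptor, was scarce and fell. It lies at chr4:66745783-66849936 on the plus strand (GRCm39). Control libraries held 4.34, 6.41, 4.68 and 3.84 CPM in replicates 1 to 4, and 4A1 KO libraries held 2.99, 4.46, 2.94 and 2.06 CPM. The 4A1 KO library was the lower one in 4 of 4 pairs, yet replicate 2 of 4A1 KO stood above replicates 1 and 4 of control, so the groups overlapped. Replicate 2 of control, the highest library for Tlr4, was also the highest for the fibroblast markers, at 48.6 CPM. Replicate 4 of control had a fibroblast sum of 41.1 CPM with the lowest control value of Tlr4. In 4A1 KO, replicate 4 had the highest fibroblast sum (35.3) and the lowest Tlr4, and replicate 2 the lowest sum (23.8) and the highest Tlr4. The part of these markers in the difference of Tlr4 was not tested. The mean went from 4.98 ± 1.31 to 3.15 ± 1.22 CPM (SD, n = 3), with a log2 fold change of -0.69 (SE 0.14, edgeR adjusted p = 0.00268). Without the replicate block the adjusted p was 0.126 and the call was lost, at a log2 fold change of -0.66. Its counts were 88 to 260 reads per library, and Cd14, the lipopolysaccharide co-receptor, reached no more than 0.0467 CPM.

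In the CD180 complex the receptor fell and its partner did not. Cd180, at chr13:102830041-102876137 on the plus strand (GRCm39), measured 109.7, 175, 78.0 and 75.2 CPM in control replicates 1 to 4 and 61.2, 89.0, 47.9 and 57.2 CPM in 4A1 KO. Replicate 2, from a batch A female, was the highest library in both genotypes, and its 4A1 KO value lay above 2 control values. Marginal zone markers, summed over 7 genes, were also highest in replicate 2 of control, at 400 CPM. Their lowest control sum, 277, was in replicate 1, where Cd180 was at 109.7 CPM. In 4A1 KO they lay at 256 to 317, with the highest sums in replicates 3 and 4, where Cd180 was lowest. Notch2 was the largest part of the sum, at means of 167 CPM in control and 187 in 4A1 KO (replicates 2 to 4, log2 fold change 0.16). The part of these markers in the difference of Cd180 was not tested. The mean went from 109.5 ± 57.0 to 64.7 ± 21.6 CPM (SD, n = 3), and the log2 fold change was -0.70 (SE 0.10, edgeR adjusted p = 4.11e-04). Without the replicate block it was -0.76 with an adjusted p of 0.131, so the call depended on the pairing. The alternatives spanned -0.85 to -0.54.

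Ly86, which encodes MD-1 and lies on the same chromosome at chr13:37529184-37603012, was higher in 4A1 KO in 4 of 4 pairs but by little. Its CPM in replicates 1 to 4 were 94.4, 95.1, 73.7 and 73.6 in control and 109.1, 102.96, 79.2 and 80.1 in 4A1 KO. The batch A libraries, replicates 1 and 2, were the higher ones in both genotypes, and the genotypes overlapped. The log2 fold change was 0.11 (SE 0.05, edgeR adjusted p = 0.0865), and the adjusted p over the alternatives ran from 0.0210 to 0.555.

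The ratio of Cd180 to Ly86 in TPM was computed after these values had been seen, together with 2 other ratios. It spanned 0.467 to 0.832 in control and 0.262 to 0.389 in 4A1 KO. The genotypes did not overlap in this ratio, and it was lower in 4A1 KO in 4 of 4 pairs, by a mean of 0.88 on the log2 scale. Since the ratio was chosen for this pattern, it is given as a description with no test. Tlr7 over Tlr9 (1.482 to 3.017 in control, 1.499 to 2.484 in 4A1 KO) and Tlr1 over Tlr6 (4.95 to 11.8 and 3.90 to 7.47) overlapped between the genotypes. Tlr1 over Tlr6 was nevertheless lower in 4A1 KO in 4 of 4 pairs, by a mean of 0.38 on the log2 scale.

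Of the endosomal receptors, Tlr7, a sensor of single-stranded RNA, fell. It lies at chrX:166086758-166113605 on the minus strand (GRCm39). The control libraries held 56.2, 75.2, 72.8 and 99.5 CPM in replicates 1 to 4 and the 4A1 KO libraries 41.9, 54.4, 51.5 and 68.6 CPM. The order of the replicates was the same in both genotypes, with replicate 4 highest and replicate 1 lowest, and each 4A1 KO library was below the control library of its number. The pairwise log2 differences of -0.42, -0.47, -0.50 and -0.54 varied less than those of any other called member. The mean went from 82.5 ± 14.8 to 58.2 ± 9.20 CPM (SD, n = 3), with a log2 fold change of -0.50 (SE 0.05, edgeR adjusted p = 7.94e-05). The fold lay at the threshold itself, and in 5 of 10 alternatives it fell just inside 0.5, over a range of -0.51 to -0.48, although the adjusted p stayed at 0.0310 or lower in all 10.

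Tlr9, the sensor of unmethylated CpG DNA, was lower in 4A1 KO in 4 of 4 pairs and was not called. Its CPM in replicates 1 to 4 were 38.8, 41.7, 36.0 and 32.0 in control and 27.4, 36.7, 28.03 and 27.3 in 4A1 KO. Replicate 2 of 4A1 KO stood above 2 control libraries, and the other 3 were below all of them. The log2 fold change was -0.26 (SE 0.07, edgeR adjusted p = 0.0109), and 0.204 without the replicate block.

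Unc93b1, the transporter of the endosomal receptors, differed by less than Tlr9. It ranged from 167 to 235 CPM in control and from 154 to 205 in 4A1 KO, lower in 4 of 4 pairs, with a log2 fold change of -0.19 (SE 0.06, edgeR adjusted p = 0.0204, and 0.344 without the replicate block).

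Neither of the shared signalling proteins was called. Myd88, the adaptor, ranged from 76.5 to 80.2 CPM in control and from 67.1 to 81.1 in 4A1 KO, and its log2 fold change was -0.14 (SE 0.05, edgeR adjusted p = 0.0495, and up to 0.205 over the alternatives). Irak4, the kinase that MYD88 recruits, ranged from 19.4 to 21.6 CPM in control and from 17.7 to 21.1 in 4A1 KO, with an edgeR adjusted p of 0.992 for the genotype difference. Both genes overlap exons of genes on the opposite strand, Myd88 by 628 bases of Acaa1a and Irak4 by 647 bases of Twf1 and 341 of Pus7l. The authors counted reads by strand.

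**Figure D2:**
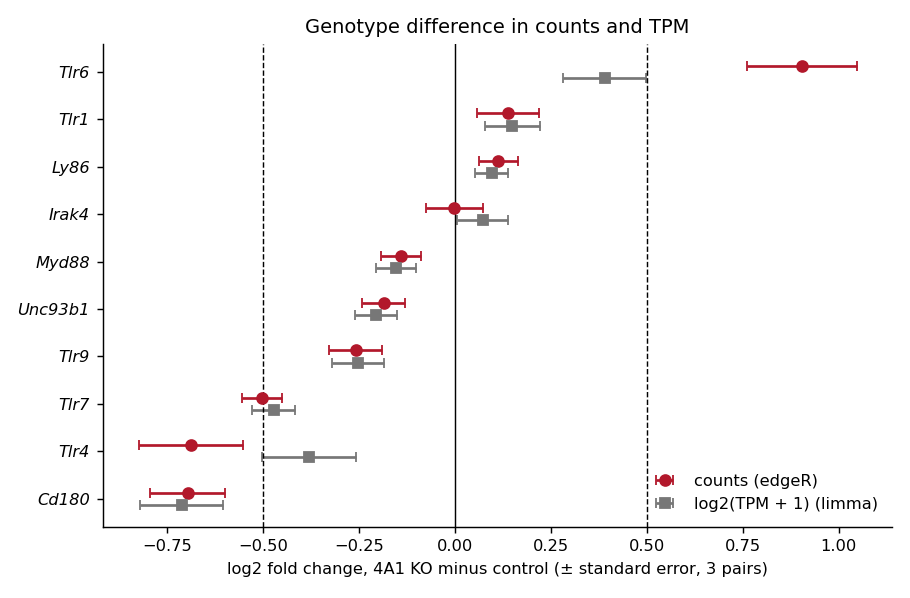
Log2 fold change (4A1 KO minus control, horizontal axis) of the 10 genes from the counts (red, edgeR) and from log2(TPM + 1) (grey, limma), with standard errors over 3 pairs and dashed lines at -0.5 and 0.5. Cd180 has the same position in both, at -0.70 and -0.71, whereas Tlr6 (0.90 and 0.39) and Tlr4 (-0.69 and -0.38) lie nearer 0 in TPM.

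The TPM, which the authors computed separately, gave 1 call among the 10 members, Cd180, where 11.8% of 12976 genes were called lower and 8.42% higher. Its log2 fold change was -0.71 (SE 0.11, limma adjusted p = 0.00325), and without the replicate block its adjusted p was 0.147. Tlr7 stood at -0.47 (limma adjusted p = 0.00146), inside the fold threshold. Tlr6 stood at 0.39 (limma adjusted p = 0.0274) and Tlr4 at -0.38 (limma adjusted p = 0.0429). With a pseudocount of 0.1 in place of 1 Tlr6 reached 0.52 and was called, and Tlr4 reached -0.57 with a limma adjusted p of 0.0519. The folds with a pseudocount of 1 are on the log2(TPM + 1) scale, which understates changes of scarce transcripts. For Tlr6 a gap to the counts remained with the smaller pseudocount, at 0.52 beside 0.90. Its mean in replicates 2 to 4 went from 2.20 to 3.17 in TPM and from 2.44 to 4.56 in CPM. The source of this gap was not tested. The direction was the same as in the counts for 9 of the 10 members, and Irak4 was close to 0 in both.

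Levels of different genes were compared only in TPM, which is per transcript length. Over 4 control libraries the order was Unc93b1 (186.1 ± 25.97, SD), Ly86 (135 ± 16.9), Cd180 (79.8 ± 33.1), Myd88 (70.0 ± 0.83), Tlr7 (40.4 ± 9.69), Tlr9 (19.9 ± 1.92), Tlr1 (19.4 ± 0.91), Irak4 (15.4 ± 0.95), Tlr6 (2.65 ± 0.98) and Tlr4 (2.41 ± 0.49). Neighbours in this order overlapped in range for Ly86 and Cd180, Cd180 and Myd88, Tlr9 and Tlr1, and Tlr6 and Tlr4. In 4A1 KO the mean of Cd180 was 45.5 ± 12.4 TPM, below Myd88 at 64.5 ± 3.61, with overlapping ranges. Ly86 and Cd180 no longer overlapped there, the lowest Ly86 value being 127 TPM and the highest Cd180 value 63.2. Tlr6 and Tlr4 were also apart in 4A1 KO, with Tlr6 at 2.94 TPM or more and Tlr4 at 2.50 or less. Of the 5 Toll-like receptors among the members, endosomal Tlr7 thus had the highest mean TPM in both genotypes, while Tlr4 and Tlr6 were the lowest of the 10.

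**Figure D3:**
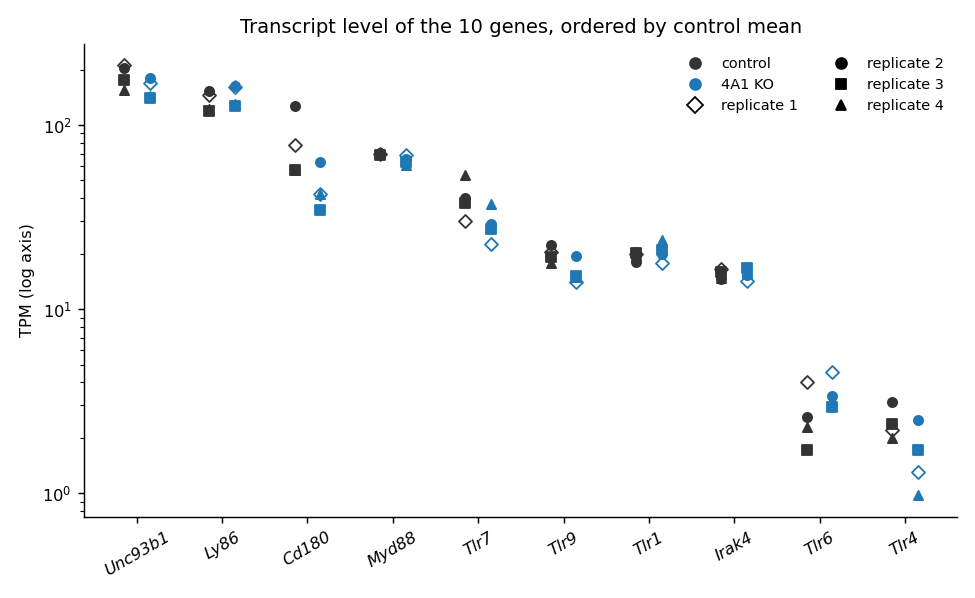
TPM (vertical axis, logarithmic) of the 10 genes in the 8 libraries, dark for control and blue for 4A1 KO, ordered by the control mean. Unc93b1 and Ly86 stand highest at means of 186 and 135 TPM in control, and Tlr6 and Tlr4 lowest at 2.65 and 2.41.

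Tlr7 is one of the X-linked genes that can be expressed from both X chromosomes in some cells of females, so the sexes were compared over the 8 libraries with batch and genotype in the fit. Tlr7 was higher in the female of each of the 4 pairs of the same batch and genotype. The female to male ratio of CPM was 1.34 in batch A control, 1.30 in batch A 4A1 KO, 1.37 in batch B control and 1.33 in batch B 4A1 KO. Its log2 difference, female minus male, was 0.41 (SE 0.04, edgeR adjusted p = 0.00380), which is inside the fold threshold of 0.5. The adjusted p depended on which libraries entered, and it was 0.0637 without replicate 1, 0.0655 without replicate 2 and 0.273 without batch in the fit, at differences of 0.38 to 0.43 over all alternatives. Of 456 X-linked genes tested the median difference was 0.06, and 42 exceeded Tlr7. Among 13706 autosomal and mitochondrial genes the median was -0.0036, and 896 exceeded Tlr7.

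**Figure D4:**
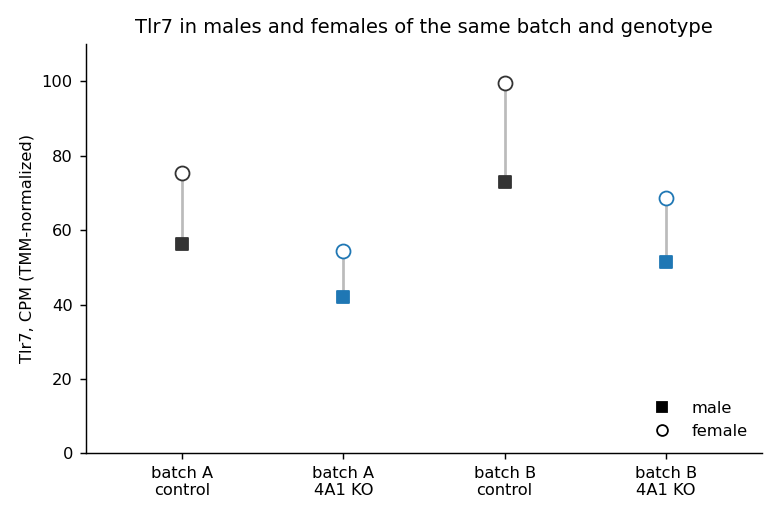
Tlr7 in CPM (vertical axis, from 0) in the male (square) and female (circle) library of each batch and genotype, 1 mouse each. The female value exceeds the male value in 4 of 4 comparisons, by 1.30 to 1.37 times.

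None of the 10 members was called by sex, beside 1.99% of 14211 genes called higher in females and 0.443% called higher in males. By edgeR, 2 of them had an unadjusted p under 0.05, Tlr7 and Cd180, where 25.4% of all genes had one. Cd180 had a female minus male log2 difference of 0.36 (SE 0.11, edgeR adjusted p = 0.0906) and was called without replicate 3 (0.60) and without replicate 4 (0.61), but stood at 0.10 without replicate 1 (edgeR adjusted p = 0.809) and at 0.10 without replicate 2 (edgeR adjusted p = 0.740). The other pathway genes on the X chromosome that could be tested were Tasl (0.27, edgeR adjusted p = 0.113), Irak1 (-0.18, 0.0290), Ikbkg (0.04, 0.697), Btk (0.13, 0.186) and Tab3 (-0.03, 0.849). Tlr8 had no count in any library, and Tlr13 reached no more than 0.187 CPM.

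The genotype difference itself was compared between the sexes and between the batches by interaction terms. No member was called in either, with 0 of 10 at an unadjusted edgeR p under 0.05 in both, where 2.85% of all genes reached that p by sex and 4.29% by batch. Over all genes 0% were called by sex and 0.00704% by batch. For Tlr7 the genotype difference changed by -0.03 on the log2 scale between the sexes (SE 0.10). For Cd180 it changed by 0.37 between the batches (SE 0.21, edgeR adjusted p = 0.999), with pairwise log2 differences of -0.84 and -0.98 in batch A and -0.70 and -0.39 in batch B.

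Beyond the 10 members, 77 genes of the same pathways were examined, of which 69 were tested, 8 were lower and 5 higher in 4A1 KO, with a median log2 fold change of -0.01. Neither count is above its share over all genes (13.7% lower, 11.6% higher). Without replicate 4 the lower count was again 8 but the higher count was 10 of 69, above the share over all genes in that fit (1728 of 14337). The lists that follow are to be read against the shares with all 3 replicates. Of the other Toll-like receptors 0 of 3 tested were called, and 1, Tlr2, the common partner of TLR1 and TLR6, had an adjusted p under 0.05 (edgeR, log2 fold change -0.39, adjusted p = 0.0161). Tlr2 was named after its value had been seen. Of 10 tested co-receptors, chaperones and trafficking genes, 2 fell. One was Hsp90b1, the endoplasmic reticulum chaperone GP96 on which folding of most Toll-like receptors depends, from 1075 ± 102 to 723 ± 78.7 CPM (SD, n = 3, log2 fold change -0.57, edgeR adjusted p = 1.93e-05). The other was Cd36, a lipid scavenger receptor that assists surface Toll-like receptors, from 46.5 ± 31.1 to 24.0 ± 10.9 CPM (log2 fold change -0.87, edgeR adjusted p = 3.66e-04, and 0.155 without the replicate block). Tasl, the X-linked adaptor of endosomal TLR7 and TLR9, was at -0.33 (edgeR adjusted p = 0.0146) and was not called. Other genes of this list had positive folds inside the threshold, among them Arf6 (0.49, edgeR adjusted p = 7.92e-05) and Slc15a3 (0.48, edgeR adjusted p = 9.63e-05). Arf6 and Slc15a3 were named after their values had been seen.

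The enzymes that process endosomal receptors or degrade their ligands had the lowest median among these lists, -0.33 over 10 tested genes, beside 0.01 over all genes. Of the 10, 3 fell, 0 rose and 9 had an adjusted p under 0.05, where the shares over all genes were 13.7% lower, 11.6% higher and 53.0% with an adjusted p under 0.05. The 9 went both ways, with positive folds for the protease Ctss (0.27) and the ribonucleases Rnaset2a (0.41) and Rnaset2b (0.42), which were named after their values had been seen. Rnaset2a and Rnaset2b are near-identical copies, so the split of reads between them is uncertain. Dnase1l3, a secreted nuclease of chromatin DNA, fell from 19.8 ± 7.12 to 7.71 ± 2.16 CPM (SD, n = 3, log2 fold change -1.34, edgeR adjusted p = 1.71e-05). Pld4, an endolysosomal exonuclease that limits the ligands of TLR7 and TLR9, fell from 26.5 ± 14.0 to 10.4 ± 4.31 CPM (log2 fold change -1.31, edgeR adjusted p = 2.21e-05). Ctsb, the protease cathepsin B, fell from 93.1 ± 14.1 to 61.6 ± 5.36 CPM (log2 fold change -0.59, edgeR adjusted p = 1.68e-04). These 3 kept their calls in all 10 alternatives named above.

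Below the receptors, 21 of 23 adaptors, kinases and ubiquitin ligases were tested, with 1 lower, 1 higher and a median of 0.07. Map3k8, the kinase TPL2, was lower at a log2 fold change of -0.57 (edgeR adjusted p = 0.00232, and -0.42 and not called without replicate 4), and Tab3, an X-linked subunit of the TAK1 kinase complex, was higher at 0.68 (edgeR adjusted p = 1.20e-04). The X-linked Irak1, the kinase that follows IRAK4, stood at 0.44 (edgeR adjusted p = 6.44e-05) and Ikbkg, the NF-kB kinase subunit NEMO, at 0.29 (edgeR adjusted p = 0.00451), both inside the fold threshold. Of 8 restraints of the pathway, Sigirr, an inhibitory receptor, fell by 0.71 on the log2 scale (edgeR adjusted p = 0.00129). Tnfaip3, the ubiquitin-editing enzyme A20, rose by 0.68 (edgeR adjusted p = 0.00164, and 0.0655 without the replicate block). The transcription factors had the highest median, 0.31, with 3 of 10 higher and 0 lower. These were the NF-kB subunits Rela (0.65, edgeR adjusted p = 2.01e-05) and Nfkb1 (0.65, edgeR adjusted p = 2.26e-05) and the regulator Nfkbiz (0.52, edgeR adjusted p = 0.00311), which was not called in 4 of 10 alternatives.

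Of 7 genes through which CD180 signals in B cells, 1 fell, and the median was -0.19. Pik3cd, the catalytic phosphoinositide kinase subunit of lymphocytes, went from 159 ± 7.63 to 93.0 ± 12.8 CPM (SD, n = 3, log2 fold change -0.79, edgeR adjusted p = 2.68e-05). Btk, the X-linked tyrosine kinase, stood at -0.29 (edgeR adjusted p = 0.00416) and was not called.

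**Figure D5:**
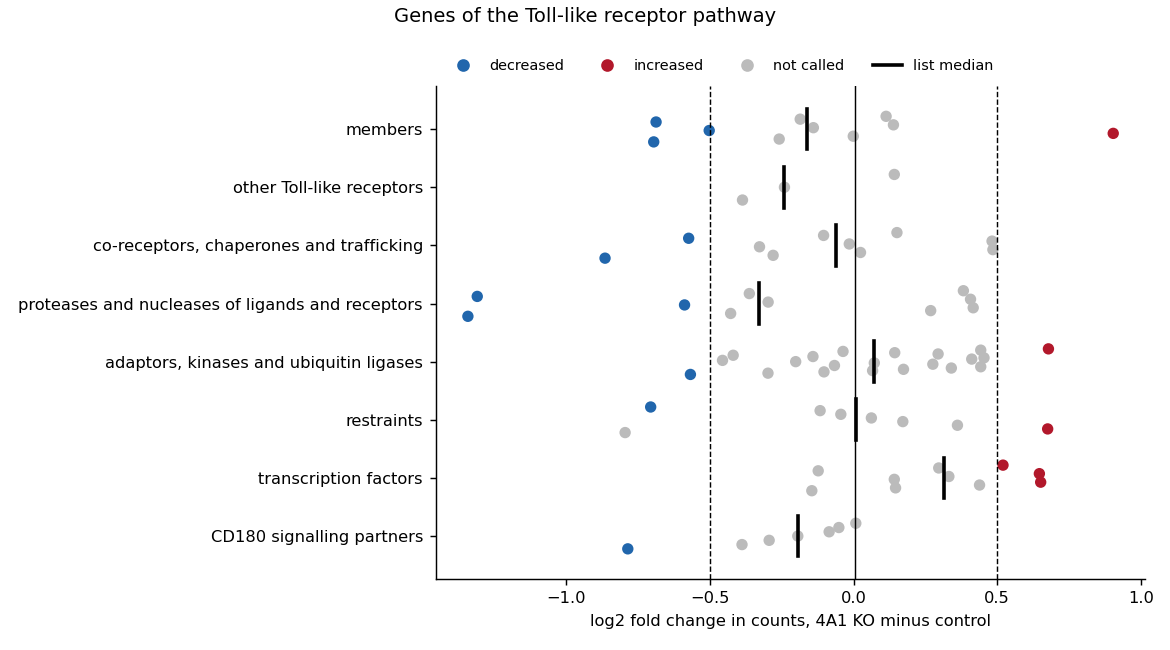
Log2 fold change in counts (4A1 KO minus control, horizontal axis) of each tested gene of the 10 members and the 7 pathway lists, blue where called lower, red where called higher and grey where not called, with a bar at each list's median and dashed lines at -0.5 and 0.5. The median is lowest for proteases and nucleases, at -0.33, and highest for transcription factors, at 0.31.

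For each called member, the genes with the most similar profile over the 8 libraries were found by the root mean square distance of centred log2 CPM among 11825 genes. They were Sla (0.0972) and Rab30 (0.112) for Cd180, E2f3 (0.0637) and Kat2b (0.0695) for Tlr7, Sgk1 (0.124) and Gnal (0.142) for Tlr6, and AA414768 (0.167) and Nlrc4 (0.179) for Tlr4. The distances were smallest for Tlr7 and largest for the scarce Tlr4. All of these genes share the libraries, and with them depth, sex and batch.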

How the data were processed

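RNA of splenic B cells from 8 mice was sequenced with a stranded kit. The authors trimmed the reads with Trim Galore 0.6.6, mapped them to GRCm39 with HISAT2 2.1.0, generated raw read counts per gene with Seqmonk over merged isoforms with opposing strand-specific setting, and deposited these counts without normalization. TPM were computed by the authors with StringTie 2.1.1 and deposited for the same libraries. How reads mapping to several places were counted is not given in the sources used here. All 53242 genes were kept, and no column was left unused.

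For the counts, edgeR 4.0.16 in R 4.3.3 fitted a quasi-likelihood model (filterByExpr, TMM, F test) with batch, sex and genotype in 6 libraries, where batch and sex together equal the replicate number as a block. This pairing comes from the sex and batch in the labels. Deviations from the genotype means correlated across genes at 0.488, 0.403 and 0.333 for same-numbered libraries and at no more than 5.3e-04 for others. Deviations within a genotype cancel out for each gene, so the low values of the other pairs are no separate evidence for the pairing. Tests are two-sided, p-values were adjusted over all genes with the Benjamini-Hochberg method, and calls required both an adjusted p under 0.05 and a log2 fold change beyond 0.5 in size. Standard errors were derived from the F statistic. For TPM, genes with a mean of 1 or more were fitted on log2(TPM + 1) by limma 3.58.1. Printed CPM were scaled by TMM over all 8 libraries. Sex and interaction terms were fitted in 8 libraries, with batch, sex and genotype but no term for the replicate number. Coordinates came from GENCODE M39 (GRCm39), matched by identifier for 52647 genes, and promoters from RefSeq on GRCm38.p6, found for 7 of the 10 members. The builds were not converted. The code was tested on simulated data.

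The members and lists were chosen with earlier results of these data known. The genes named are the 10 members, the called genes of each pathway list (at most 3 per direction by adjusted p), X-linked list genes, the 2 genes nearest to each called member over 8 libraries among those averaging 1 CPM or more, and markers that give a list's range. Mice were single per replicate. Standard deviations are between mice, and no counting intervals were computed. Alternatives were DESeq2's size factors, upper quartile scaling, DESeq2 1.42.0, other filters on low counts or TPM, a pseudocount of 0.1, edgeR's glmTreat, omission of each replicate in turn, all 8 libraries, and fits with no replicate block.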

Additional observations from a re-analysis of the deposited data

Results flagged for a closer look

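Among 20 groups of 4 libraries, 1 per member and genotype, Tlr9 in 4A1 KO held a library that stood apart from the others in CPM. Replicate 2 lay at 36.7 CPM and the other 3 libraries at 27.3 to 28.03, so that its gap to the nearest library was 0.918 of the whole range, above Dixon's critical value for 4 libraries. Chance flags about 1 in 20 such groups. Replicate 2 was also the highest of the control libraries for Tlr9, at 41.7 CPM.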

How the results depend on the processing

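Of the single-gene values under the alternatives, 341 kept their direction and side of the threshold, 15 lost a call, 5 gained one and 19 changed sign, none of them called before or after. In the comparison of the sexes, the 6 libraries and the omission of replicate 1 are the same fit, so its values are counted under both. The genotype fold of Irak4 in counts turned to 0.022 with upper quartile scaling and 0.0039 with a mean of 1 CPM or more, and ran from -0.016 to 0.023 when one replicate was left out. In the comparison of the sexes (female minus male), the 6 libraries turned Tlr4 to -0.39, Tlr6 to 0.078, Tlr9 to -0.11 and Ly86 to 0.0027. There, leaving out one replicate spanned -0.053 to 0.069 for Tlr1, -0.39 to 0.57 for Tlr4, -0.67 to 0.078 for Tlr6, -0.11 to 0.25 for Tlr9, -0.051 to 0.0070 for Ly86 and -0.13 to 0.044 for Irak4. The cause was not tested. Without the replicate block the calls among members went from 4 to 2 in counts and from 1 to 0 in TPM. The glmTreat test against a log2 fold change of 0.5 left 1 of the 4 members (Tlr6), 7 of 13 pathway genes and 1627 of 3596 genes. Leaving out one replicate gave 3 to 4 members in counts, 1 in TPM, 12 to 18 pathway genes (8 lower each time and 4 to 10 higher) and 3083 to 3821 genes. It gave 0 to 2 members in the comparison of the sexes. The highest values there came without replicate 3, when Tlr6 (-0.67) and Cd180 (0.60) were called, and without replicate 4, when Tlr4 (0.57) and Cd180 (0.61) were called. The pseudocount of 0.1 gave 2 members in TPM. Interactions of genotype with sex or batch called 0 members with DESeq2's size factors and with no filter on low counts. In the paired analysis and without the replicate block, 3596 and 3000 genes and 13 and 10 pathway genes were called. Tlr4 and Tlr6 rest on 82 to 260 reads per library, which limits their precision.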
